A study of Homo sapiens with 6 samples.

Results

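Translation initiation factor genes were taken as all spots whose annotated symbol, brought up to date by gene ID, begins with EIF followed by a digit. This gave 39 genes at 67 spots, of 6255 named genes and 9169 spots tested. They comprised 5 genes of the EIF1 group, 3 of EIF2, 2 EIF2 kinases, 3 of EIF2B, 12 of EIF3, 11 of EIF4, 2 of EIF5 and EIF6 by itself. The arrays came from SH-SY5Y cells, an established human neuroblastoma line. The 3 GFP control samples had been transfected with the vector pEGF-C2 without an insert, and the 3 DN-TRF2 samples with pIRES2-EGFP carrying a dominant-negative TRF2, a telomere-binding protein. All cells had been selected in geneticin at 500 µg/ml, and RNA was taken on day 7 from 3 independent experiments. Arrays are called GFP control 1 to 3 and DN-TRF2 1 to 3 by their replicate number. Because the plasmid backbone changes with the insert, their effects cannot be told apart, and no spot carried the name of the TRF2 gene (TERF2), so the labels were not checked on it.

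Initiation factors assemble the ribosome on the start codon of an mRNA. EIF4 proteins bind the capped end of the message and unwind it, EIF3 and EIF1 proteins sit on the small subunit during scanning, and EIF2 delivers the initiator tRNA and is recharged by EIF2B. EIF5 triggers GTP hydrolysis on EIF2, and EIF6 keeps the large subunit free until it is needed. Cells slow initiation by phosphorylating EIF2 through EIF2 kinases, or by binding EIF4E with EIF4E-binding proteins, which mTOR releases.

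The number of arrays limits precision. Median intensity over the tested spots ran from 480 to 712 on the 6 arrays, before normalization. Values below are log2 of intensity plus an offset of 50, quantile-normalized and averaged over the spots of a gene, and differences are DN-TRF2 minus GFP control with 3 arrays per group. They were tested with limma over all genes. Signal does not rank genes by abundance here: 1 clone annotated EIF5A was spotted at 2 positions whose mean signals differed by 2.61, and 1 clone of EIF2B2 at positions that differed by 1.05. Levels are therefore compared between arrays, not between genes. Of 15 listed neuroblastoma markers 9 were measured, with 15 of their 19 spots above the median signal. DBH, of noradrenaline synthesis, lay at percentile 82.0. The 9 genes ran from percentile 26.4 for MYCN to 93.9 for CHGB, of secretory granules. The same limit on signal applies to them: the immune marker LYZ lay at percentile 89.7. Of the listed substrate-adherent markers 7 were measured, and their mean level was 9.29 to 9.43 on GFP control arrays and 9.53 to 9.58 on DN-TRF2 arrays. Of the 7, 5 had the higher mean in DN-TRF2, with a median difference of 0.088. TIMP1 (0.68) and S100A6 (0.59) stood highest and VIM (-0.20) and FN1 (-0.029) were below 0. Higher means were not particular to this list. They were found for 4 of 6 liver and epithelial markers (median 0.081) and 2 of 3 immune markers (0.18). Of the 9 neuroblastoma markers 5 were higher (0.026), and of all genes 48.0%. The part of these markers in the results below was not tested.

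No initiation factor gene differed between the groups by limma's adjusted test. Of the 39 genes 0 passed an adjusted p of 0.05, as did 0 of all genes (0%), and the smallest adjusted p was 1.00. Of the 39 genes 0 had an unadjusted p under 0.05, against 3.57% of all genes. The mean was higher in DN-TRF2 for 16 genes and lower for 23, or 41.0% higher against 48.0% of all genes. The median difference over the 39 genes was -0.060, beside -0.0067 over all genes, and the median size of a difference was 0.11 in both. Without DN-TRF2 2 the medians were -0.016 and -0.0099. Differences ran from -0.46 for EIF1AD to 0.49 for EIF4EBP2. The 95% interval reached 0.35 to either side in the median of the 39 genes. With each of the 6 arrays left out in turn, 24 of the 39 genes kept the sign of their difference, against 47.5% of all genes. Single arrays moved the values widely: for 38 of the 39, all but EIF4E, at least 1 such value differed from the full one by more than 1.5 times. This was not particular to the members: it held for all but MKNK2 of the 43 partner genes read below. The share over all genes was not counted. The 2 ends of each member's values with 1 array left out are therefore given with the genes.

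**Figure D1:**
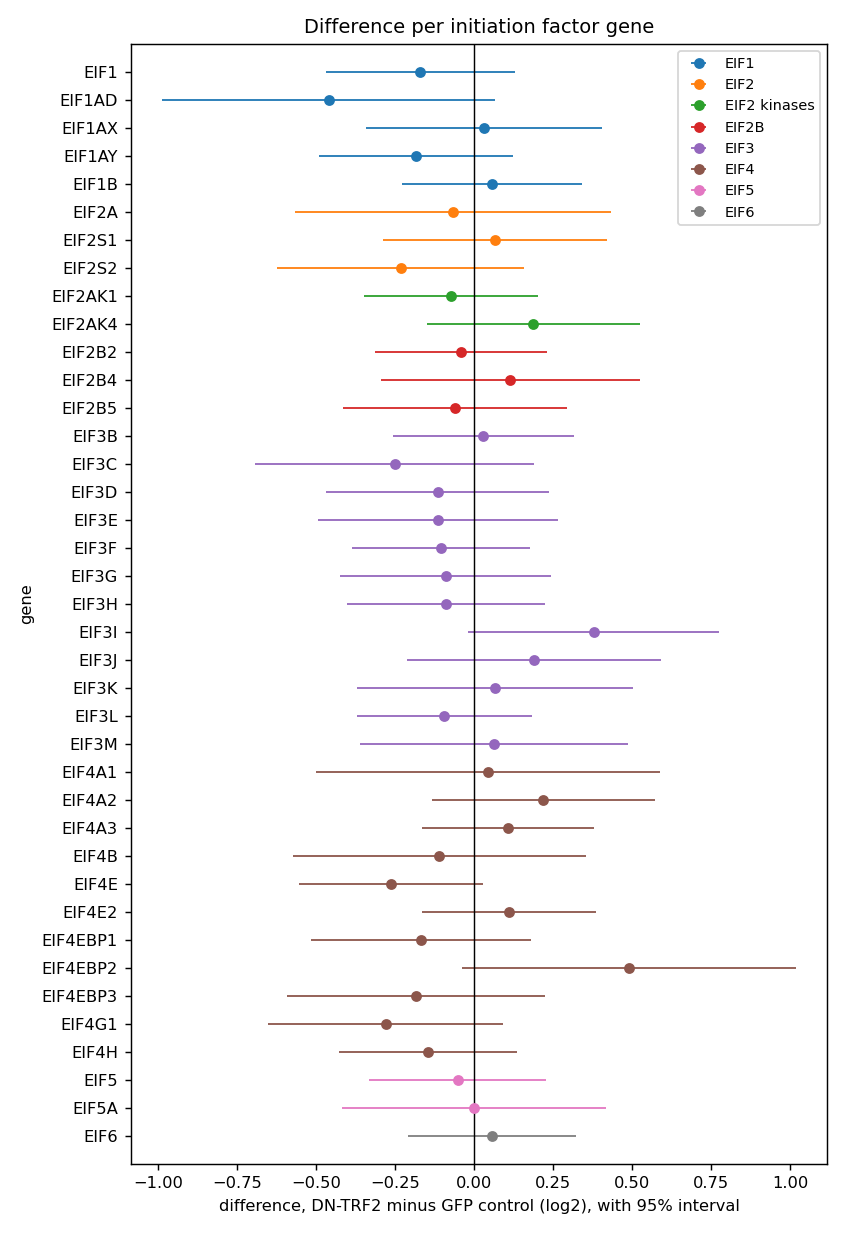
Difference of each of the 39 initiation factor genes (horizontal axis, DN-TRF2 minus GFP control, log2) with its 95% interval from limma, colours marking the groups of factors. All intervals include 0; EIF1AD at -0.46 and EIF4EBP2 at 0.49 lie farthest from it.

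Factors of cap binding and unwinding, with their inhibitors, ranged from -0.28 for EIF4G1 to 0.49 for EIF4EBP2. Of 11 EIF4 genes, DN-TRF2 had the higher mean for 5 and the lower for 6, with a median of -0.11. EIF4E encodes the protein that binds the mRNA cap. Its signal was 8.22, 8.31 and 8.01 on GFP controls 1, 2 and 3, and 7.92, 7.92 and 7.91 on the DN-TRF2 replicates. All 3 DN-TRF2 arrays lay below all controls, by a mean of -0.26 ± 0.13 (SE; limma adjusted p = 1.00). It was the 1 gene of the 39 whose groups did not overlap, which was so for 8.95% of all genes. EIF4E was read at 1 dim spot, at signal percentile 24.0, which was lost without the dimmest quartile of spots. Its difference was -0.32 at an offset of 1 and -0.22 at an offset of 100. With 1 array left out its difference ran from -0.19 (without GFP control 2) to -0.34 (without GFP control 3).

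EIF4EBP2, an inhibitor that holds EIF4E away from its scaffold, had the highest difference of the members with all 6 arrays in, though not without GFP control 2. It was at 9.48, 8.86 and 9.82 on GFP control replicates 1 to 3 and at 10.09, 9.73 and 9.80 on the DN-TRF2 replicates. GFP control 2 was the lowest of the 6 arrays, and GFP control 3 lay above 2 of the 3 DN-TRF2 arrays. The difference was 0.49 ± 0.23 (SE), with an interval from -0.039 to 1.02. It was 0.22 without GFP control 2 and 0.71 without GFP control 3. Its relatives EIF4EBP1 and EIF4EBP3 differed by -0.17 ± 0.15 and -0.18 ± 0.18, each with overlapping groups. Without GFP control 2 these were -0.034 and -0.042, and without GFP control 3 -0.24 and -0.30. EIF4EBP3 was also at -0.051 without DN-TRF2 3. The EIF4EBP3 gene lies beside ANKHD1, with which it forms joint transcripts that a cDNA spot could also detect.

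EIF4G1, the scaffold that joins cap, helicase and ribosome, differed by -0.28 ± 0.16. Its signals were 10.62, 10.04 and 10.28 in controls and 10.06, 9.95 and 10.09 in DN-TRF2 cells. GFP control 2 was here within the DN-TRF2 range, and the other controls lay above it. Without that array the difference was -0.42, and without GFP control 1 it was -0.13. The helicase cofactor EIF4B differed by -0.11 ± 0.20, from 0.14 without GFP control 2 to -0.24 without GFP control 1. EIF4H, a related cofactor, differed by -0.15 ± 0.12, from -0.084 without GFP control 1 to -0.20 without GFP control 2.

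The EIF4A helicases, which unwind the leader of the mRNA, had means higher in DN-TRF2 for all 3 genes, and for EIF4A2 and EIF4A3 alone without GFP control 2. EIF4A1 was at 10.74, 9.93 and 10.94 in controls and 10.65, 10.44 and 10.65 in DN-TRF2 cells. Controls 1 and 3 lay above the DN-TRF2 arrays, and control 2 was far below. Its difference of 0.042 ± 0.24 turned to -0.26 without GFP control 2 and was 0.24 without GFP control 3. EIF4A2 differed by 0.22 ± 0.16 and EIF4A3, a helicase of the exon junction complex, by 0.11 ± 0.12. Without GFP control 2 these were 0.084 and 0.053, and without GFP control 3 0.29 and 0.14. EIF4A1 and EIF4A2 are close relatives in sequence, and cDNA spots may not separate their RNAs.

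The EIF3 complex, the largest of the factors, was spread around 0. Of 12 measured subunits 5 were higher and 7 lower in mean, with a median of -0.090. EIF3I, a subunit built as a WD-repeat propeller, had the highest difference of the subunits with all 6 arrays in, though not without GFP control 2. It was at 10.33, 9.95 and 10.57 in controls and at 10.82, 10.54 and 10.62 in DN-TRF2 cells. The groups overlapped by 1 array on each side, since GFP control 3 lay just above DN-TRF2 2. The difference was 0.38 ± 0.18 (SE), with both of its spots higher, by 0.23 and 0.53. Without GFP control 2 it was 0.21, and without GFP control 3 it was 0.52. EIF3B and EIF3G, which sit with EIF3I in 1 module of the complex, differed by 0.028 ± 0.13 and -0.090 ± 0.15, and both changed sign with 1 array left out: EIF3B to -0.030 without DN-TRF2 1 and EIF3G to 0.018 without DN-TRF2 2. The other ends were 0.089 for EIF3B without DN-TRF2 2 and -0.19 for EIF3G without DN-TRF2 1.

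EIF3C had a difference of -0.25 ± 0.19, from -0.12 without DN-TRF2 3 to -0.44 without GFP control 3. It has a near-identical copy, EIF3CL, so the RNA behind that spot is uncertain. EIF3D, EIF3E, EIF3F, EIF3H and EIF3L differed by -0.12, -0.12, -0.10, -0.090 and -0.095. EIF3E turned to 0.034 without GFP control 2 and was -0.24 without GFP control 1. EIF3D ran from -0.014 without DN-TRF2 2 to -0.24 without GFP control 2, and EIF3H from -0.013 without GFP control 1 to -0.20 without GFP control 3. Ranges for EIF3F (-0.052 to -0.14) and EIF3L (-0.062 to -0.16) were narrower. EIF3J, a loosely attached subunit, differed by 0.19 ± 0.18, with 0.0047 without GFP control 2 and 0.34 without GFP control 1. EIF3K and EIF3M differed by 0.065 and 0.062, and EIF3M turned to -0.078 without GFP control 1. Without DN-TRF2 1 EIF3M was at 0.22. EIF3K was at 8.50, 9.20 and 8.53 in controls and 8.86, 8.74 and 8.82 in DN-TRF2 cells. Controls 1 and 3 were thus below every DN-TRF2 array, and control 2 was above them all. Without GFP control 2 its difference was 0.29, and without GFP control 1 it was -0.058.

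Genes of initiator tRNA delivery and its control ranged from -0.23 for EIF2S2 to 0.19 for EIF2AK4. EIF2S2, the beta subunit of EIF2, was at 9.07, 9.57 and 8.94 in controls and at 8.93, 9.01 and 8.95 in DN-TRF2 cells. Control 2 stood apart, and the other controls lay near or within the DN-TRF2 range. The difference was -0.23 ± 0.17, with -0.043 without GFP control 2 and -0.36 without GFP control 3. EIF2S1, the alpha subunit that EIF2 kinases phosphorylate, differed by 0.066 ± 0.16, with -0.038 without GFP control 2 and 0.21 without GFP control 3. EIF2A, a separate protein that can bind initiator tRNA, differed by -0.067 ± 0.22, with 0.15 without GFP control 2 and -0.30 without GFP control 1.

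Of the kinases, EIF2AK4 (GCN2), which senses amino acid shortage, differed by 0.19 ± 0.15, from signals of 8.02, 7.79 and 8.26 in controls and 8.11, 8.27 and 8.25 in DN-TRF2 cells. These ranges overlapped, and the difference was 0.071 without GFP control 2 and 0.30 without GFP control 3. EIF2AK1 (HRI), which senses heme, differed by -0.073 ± 0.12, from -0.037 without GFP control 2 to -0.13 without GFP control 1. In the exchange factor EIF2B, the delta subunit EIF2B4 was at 11.70, 11.06 and 11.55 in controls and 11.52, 11.70 and 11.43 in DN-TRF2 cells. Its difference of 0.11 ± 0.18 turned to -0.075 without GFP control 2 and was 0.24 without GFP control 1. EIF2B2, the beta subunit, differed by -0.042 ± 0.12 and EIF2B5, the catalytic epsilon subunit, by -0.060 ± 0.16 at a spot in the dimmest 1.89% of genes. EIF2B2 was at -0.0059 without GFP control 2 and -0.093 without GFP control 3, and EIF2B5 at 0.037 without GFP control 1 and -0.19 without DN-TRF2 1.

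In the EIF1 group, EIF1AD had the lowest difference of all members with all 6 arrays in, though not without GFP control 1 or DN-TRF2 3. The group was formed by symbol, and whether EIF1AD acts in scanning was not examined here. It was at 9.81, 9.41 and 9.17 in controls and 9.27, 9.20 and 8.53 in DN-TRF2 cells. GFP control 1 was highest and DN-TRF2 3 lowest, and control 3 lay within the DN-TRF2 range. The difference was -0.46 ± 0.23 (SE), with an interval from -0.99 to 0.066. Without DN-TRF2 3 it was -0.23, and without GFP control 3 it was -0.61. EIF1, which guards start codon choice, differed by -0.17 ± 0.13 and its relative EIF1B by 0.057 ± 0.13. EIF1 was at -0.075 without GFP control 2 and -0.24 without GFP control 1, and EIF1B turned to -0.022 without the latter. Without GFP control 2 EIF1B was at 0.12. EIF1AX differed by 0.031 ± 0.16 and its Y-linked relative EIF1AY by -0.19 ± 0.14. Without GFP control 1 EIF1AX was at -0.13, and without GFP control 2 at 0.17; EIF1AY ran from -0.10 without GFP control 2 to -0.24 without DN-TRF2 2. The level of EIF1AY is not given here, and the RNAs of this pair may not be separated by cDNA spots.

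Among the factors of the last steps, EIF5 was at 9.45, 9.40 and 9.38 in controls and 9.38, 9.22 and 9.46 in DN-TRF2 cells, a difference of -0.052 ± 0.12 that turned to 0.013 without DN-TRF2 2 and was -0.11 without DN-TRF2 3. EIF5A, a hypusine-bearing factor that also acts in elongation, was at 10.95, 10.30 and 10.83 in controls and 10.81, 10.53 and 10.73 in DN-TRF2 cells. The difference was -0.0015 ± 0.18, with -0.20 without GFP control 2 and 0.12 without GFP control 1. EIF6 was at 9.35, 9.24 and 9.31 in controls and 9.40, 9.38 and 9.29 in DN-TRF2 cells, a difference of 0.057 ± 0.12 with an interval from -0.21 to 0.32, and ran from 0.027 without GFP control 2 to 0.092 without DN-TRF2 3. In all of these the groups overlapped.

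Replicate numbers 1 to 3 were taken to pair the arrays. A gene's distance from its group mean was alike on arrays of 1 number, with correlations over the 39 genes of 0.59, 0.40 and 0.49, beside 0.39, 0.29 and 0.24 over all genes. The members' median difference was -0.015 at number 1, -0.13 at number 2 and -0.025 at number 3, beside -0.014, -0.033 and 0.0025 over all genes. DN-TRF2 was higher for 18, 13 and 15 of the 39 genes at numbers 1, 2 and 3. Of all 6255 genes it was higher for 2998, 2894 and 3172. Differences were widest at number 2, with a median size of 0.25 against 0.14 at number 1 and 0.093 at number 3. Over all genes they were also widest at number 2, with 0.24 against 0.17 at number 1 and 0.11 at number 3. Within a number there is 1 array per group and no test.

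**Figure D2:**
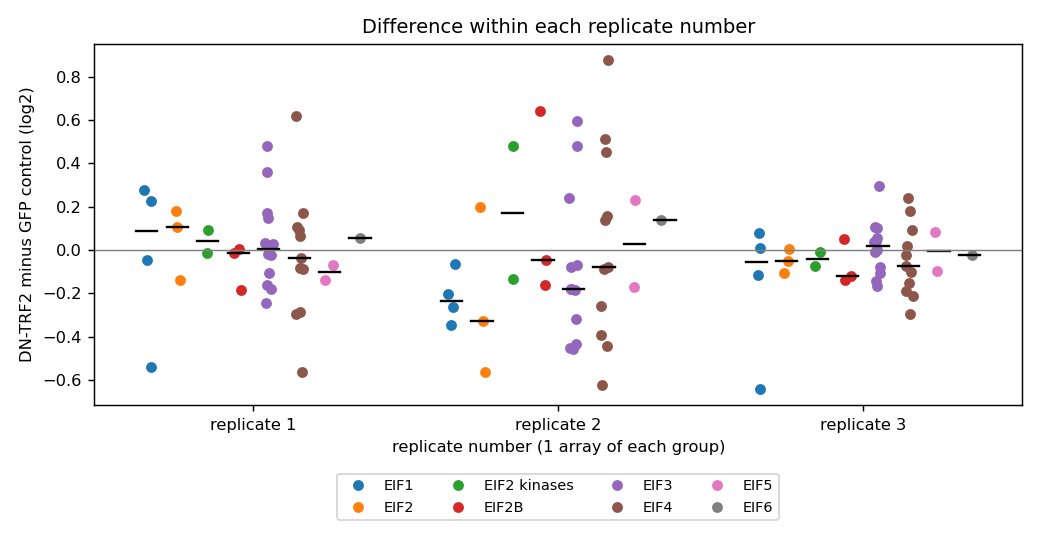
Difference of 38 genes (EIF1AY not drawn) within replicate number 1, 2 and 3 (vertical axis, DN-TRF2 minus GFP control, log2); points are genes, bars the median of each group of factors. The EIF4 genes spread most at replicate 2, where EIF4EBP2 reached 0.87 and EIF4B -0.62.

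The sign was the same at all 3 numbers for 15 of the 39 genes, or 38.5%, against 26.7% of all genes. Of these 12 were lower each time, where the background was 15.2%, and 3 were higher, where it was 11.5%. The genes lower each time were EIF1, EIF1AD, EIF1AY, EIF2AK1, EIF3C, EIF3D, EIF3E, EIF3L, EIF4E, EIF4EBP3, EIF4G1 and EIF4H. Those higher each time were EIF3I, EIF4A3 and EIF4E2. Some of these differences were near 0, such as -0.009 for EIF3E at number 3. For EIF1AD the 3 differences were -0.54, -0.20 and -0.64, and for EIF3I 0.48, 0.60 and 0.054.

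With the replicate number as a block, 3 of the 39 genes had an unadjusted p under 0.05, against 5.31% of all genes. In this limma fit the unadjusted p was 0.010 for EIF1AD, 0.027 for EIF4EBP2 and 0.033 for EIF3I. After adjustment 0 of the 39 passed an adjusted p of 0.05, the smallest being 0.88. Without GFP control 3, and with no block, 5 genes had an unadjusted p under 0.05: EIF1AD, EIF3C, EIF3I, EIF4E and EIF4EBP2. Without GFP control 2 there were 2, EIF3K and EIF4G1. In both cases 0 passed after adjustment, and all genes with such a p came to 7.71% and 8.12%.

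Members varied more between the controls than between the DN-TRF2 arrays, as genes of the whole array did. The SD was larger in GFP control than in DN-TRF2 for 31 of 39 genes, or 79.5%, against 78.4% of all genes, with median SDs of 0.23 and 0.11. GFP control 2 was the array farthest from the gene's median for 21 of the 39 genes, or 53.8%, against 40.9% of all genes. By group of factors these were 8 of 11 EIF4 genes and 4 of 12 EIF3 genes. It was the highest array of the 6 for 16 genes and the lowest for 11, with the shares over all genes not counted. It lay above the mean of the other controls for 21 of the 39, against 52.2% of all genes, so members went both ways on it.

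**Figure D3:**
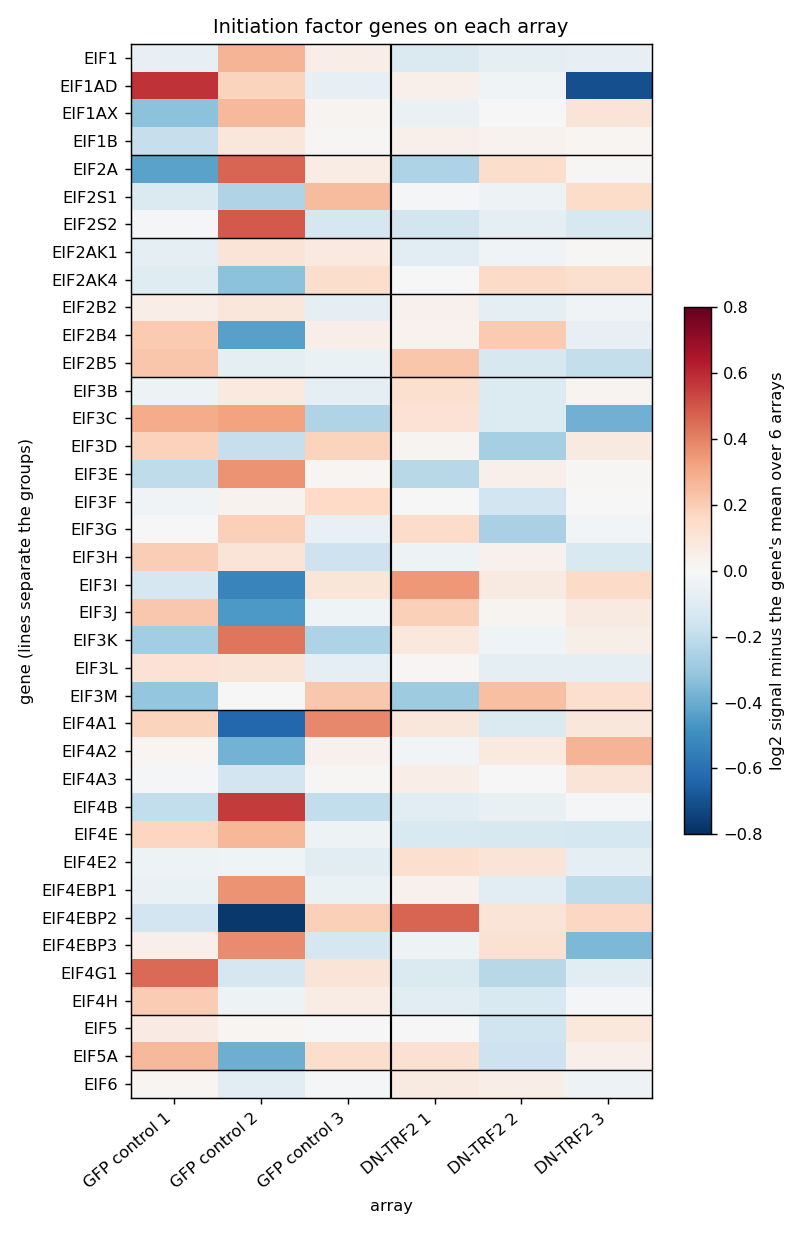
Signal of 38 initiation factor genes (rows, EIF1AY not drawn) on each of the 6 arrays (columns), as log2 signal minus the gene's mean over the arrays; red is above and blue below that mean. GFP control 2 holds many of the strong colours of both kinds, such as EIF4EBP2 and EIF4A1 in blue and EIF4B and EIF2S2 in red; EIF1AD stands out on GFP control 1 and DN-TRF2 3 instead.

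Genes that lay low on GFP control 2 relative to the other controls included EIF4A1 at -0.91, EIF4EBP2 at -0.79, EIF5A at -0.59, EIF2B4 at -0.57 and EIF3J at -0.55. Genes that lay high were EIF4B at 0.76, EIF3K at 0.69, EIF2A at 0.65, EIF2S2 at 0.57 and EIF3E at 0.45. These genes were chosen after their values were seen. EIF4B was at 7.95, 8.70 and 7.95 in controls and 8.06, 8.08 and 8.13 in DN-TRF2 cells, and EIF2A at 8.03, 8.93 and 8.52 and at 8.21, 8.60 and 8.47. In EIF4B, control 2 was the highest of the 6 arrays and the other controls were below all DN-TRF2 arrays.

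A feature that some initiation factor mRNAs share with ribosomal protein mRNAs is a run of pyrimidines at the very start, the terminal oligopyrimidine tract, through which mTOR controls translation. Windows around annotated starts were read from RefSeq (GRCh38.p14), where 32 of the 39 genes had an entry. The feature searched was a run of at least 5 letters C or T that opens with C at the annotated start, on the gene's strand, counting a gene if any of its listed starts had it. It was found in 7 of the 32 genes, or 21.9%, against 8.71% of 5143 genes of the array with an entry and 4.07% of all 35116 listed windows. The 7 are shown as 30 bases, 10 before the start and 20 from it, with the run in capitals.
EIF2A (chr3:150546777-150546806, plus strand): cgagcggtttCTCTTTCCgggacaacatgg
EIF3D (chr22:36529147-36529176, minus strand): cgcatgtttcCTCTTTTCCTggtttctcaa
EIF3F (chr11:7987327-7987356, plus strand): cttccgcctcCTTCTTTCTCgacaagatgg
EIF3K (chr19:38619178-38619207, plus strand): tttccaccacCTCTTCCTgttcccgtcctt
EIF3M (chr11:32583821-32583850, plus strand): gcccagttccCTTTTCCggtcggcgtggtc
EIF4A2 (chr3:186783567-186783596, plus strand): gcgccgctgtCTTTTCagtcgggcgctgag
EIF4B (chr12:53006446-53006475, plus strand): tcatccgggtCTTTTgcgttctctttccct

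Starts of 4 members with large differences between groups or between controls held no such run at the start, and are shown for contrast over the same window. The EIF4EBP2 start does have one under a wider rule given below, which lets the run begin up to 3 bases away.
EIF4E (chr4:98929114-98929143, minus strand): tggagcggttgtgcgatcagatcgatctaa
EIF4EBP2 (chr10:70404135-70404164, plus strand): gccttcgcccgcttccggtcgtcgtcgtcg
EIF3I (chr1:32222397-32222426, plus strand): ttccggtcttactcacgttgcggccttcct
EIF4A1 (chr17:7572815-7572844, plus strand): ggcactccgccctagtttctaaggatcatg

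The 3 members highest on GFP control 2 relative to the other controls, EIF4B, EIF3K and EIF2A, all carried the run. Below them, EIF2S2 at 0.57 and EIF3E at 0.45 had no entry and are in neither median given here. EIF4EBP3, at 0.43, had no run. The other 4 genes with the run did not follow the first 3: EIF3M lay at 0.049, EIF3F at -0.037, EIF3D at -0.36 and EIF4A2 at -0.40. The median was 0.049 over the 7 genes with the run and -0.12 over 24 genes without it, EIF1AY being left out of the latter. Between the groups, the DN-TRF2 mean was above that of the controls for 3 of the 7 and below it for 4, with a median of -0.067. A match describes letters at an annotated start, which need not be the start used in these cells, and the search was chosen after the values were seen. With the run allowed to begin within 3 bases of the start, 11 of the 32 genes had it, against 20.6% of the array's genes.

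**Figure D4:**
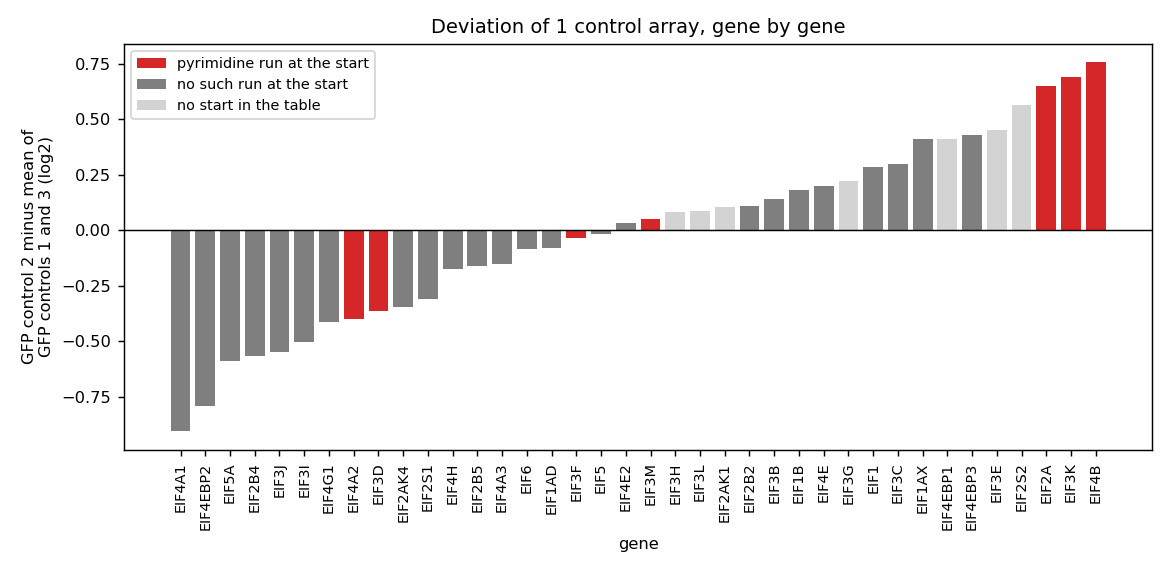
GFP control 2 minus the mean of GFP controls 1 and 3 (vertical axis, log2) for 38 genes (EIF1AY not drawn), sorted; red bars are genes with a pyrimidine run at the annotated start, dark grey bars genes without one and light grey bars genes with no start in the table. Red bars stand at the far right, up to 0.76 for EIF4B, and also on the left, down to -0.40 for EIF4A2.

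Several members could be read at more than 1 spot. Of the 39 genes 16 had at least 2 spots, 44 in all. The difference had 1 sign at all spots in 9 of the 16, or 56.2%, against 42.5% of the array's genes with several spots. Of the 67 spots 1 had an unadjusted p under 0.05, against 3.41% of all spots, and at 4 the groups did not overlap, against 8.70%. GFP control 2 lay on the same side of the other controls at all spots in 10 of the 16 genes, against 45.8% of such genes. These included all 4 spots of EIF4A2, below, and all 3 spots of EIF2S2, above.

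The spot with the small p belonged to EIF4E2, a cap-binding relative of EIF4E that acts as a repressor. It was at 10.32, 10.17 and 10.49 in controls and 10.83, 10.79 and 10.80 in DN-TRF2 cells, with no overlap. The difference there was 0.48 ± 0.14 (SE), with an unadjusted p of 0.0078 and an adjusted p of 1.00 by limma over all spots. The other 3 EIF4E2 spots differed by -0.12, 0.19 and -0.11, so that the gene's average was 0.11 ± 0.12. Averaged over spots, EIF4E2 was at 10.44, 10.45 and 10.39 in controls and 10.61, 10.59 and 10.41 in DN-TRF2 cells. With 1 array left out its average difference ran from 0.073 (without DN-TRF2 1) to 0.17 (without DN-TRF2 3).

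Spots disagreed in sign in 7 genes. For EIF4A1 the 2 spots differed by -0.16 and 0.25, for EIF5A by 0.11 and -0.12 although both held the same clone, and for EIF3K by 0.22 and -0.085. EIF6 had 2 spots higher and 1 lower, from -0.22 to 0.20. EIF3E, averaged at 9.74, 10.30 and 9.95 in controls and 9.72, 9.98 and 9.95 in DN-TRF2 cells, was lower at 4 of 5 spots. EIF3D, at 9.42, 9.06 and 9.42 and at 9.26, 8.98 and 9.31, was lower at 2 of 3. For both the groups overlapped.

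**Figure D5:**
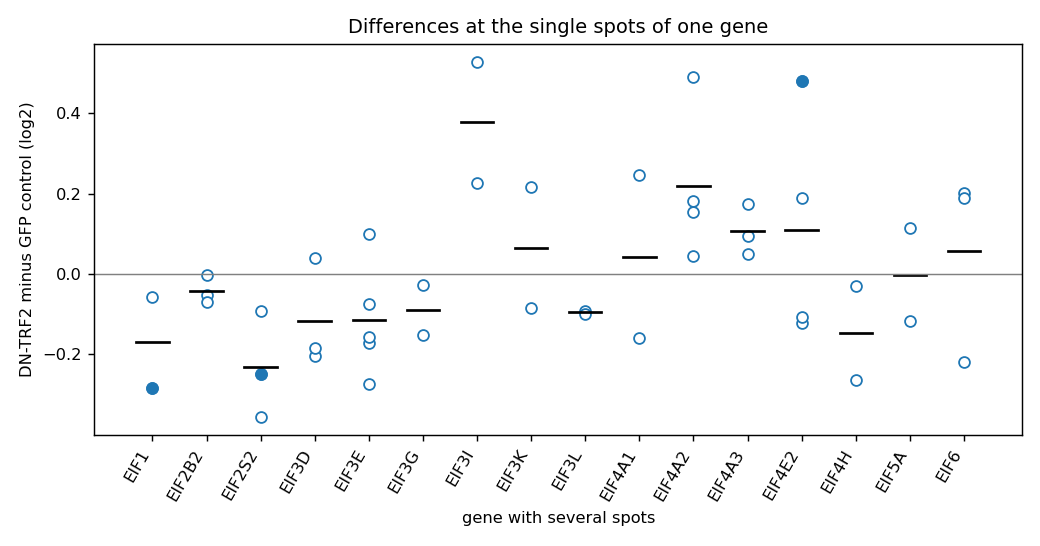
Difference at each spot (vertical axis, DN-TRF2 minus GFP control, log2) for the 16 genes with several spots; circles are spots, filled where the groups did not overlap, and bars are the gene's average. The filled EIF4E2 spot at 0.48 stands above the other spots of that gene.

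Partners of the initiation factors were read from 4 lists. Of 9 measured cap and poly(A) partners 3 had a higher mean, with a median difference of -0.0055. Of 9 genes of mTOR and MNK signalling 6 were higher (median 0.083), of 14 integrated stress response genes 7 (0.0025), and of 11 other initiation, recycling and release factors 7 (0.031). The share of higher means over all genes was 48.0%. Of the 43 measured partners 0 passed limma's adjusted test and 0 had an unadjusted p under 0.05 (3.57% of all genes), and the groups did not overlap in 3, PAIP1, MKNK2 and ATF4, where the background was 8.95%. PAIP1, a partner of the poly(A)-binding protein, differed by 0.22 ± 0.13, with 0.13 without DN-TRF2 3. Its groups were barely separated, GFP control 3 being at 11.098 and DN-TRF2 2 at 11.102. DDX3X, an RNA helicase, was at 8.24, 8.66 and 7.85 in controls, and the DN-TRF2 arrays lay from 7.93 to 8.15, inside that range. Its difference of -0.23 ± 0.20 was -0.022 without GFP control 2 and -0.42 without GFP control 3. CYFIP1, an EIF4E-binding protein, was at 9.37, 9.21 and 9.44 in controls and 8.81, 9.41 and 9.32 in DN-TRF2 cells. Its difference of -0.16 ± 0.18 turned to 0.025 without DN-TRF2 1, the lowest array, and was -0.28 without DN-TRF2 2.

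MKNK2, a kinase that phosphorylates EIF4E, was at 7.04, 6.87 and 7.25 in controls and 7.36, 7.37 and 7.26 in DN-TRF2 cells. The groups did not overlap, by a narrow margin between GFP control 3 and DN-TRF2 3, and the difference was 0.28 ± 0.14. RHEB, the GTPase that activates mTOR, differed by -0.34 ± 0.29, from -0.11 without GFP control 1 to -0.72 without GFP control 2. MLST8, an mTOR subunit, differed by 0.099 ± 0.14, from 0.043 without GFP control 3 to 0.21 without GFP control 1. In the stress response, ATF4, the transcription factor whose translation rises when EIF2 is phosphorylated, was at 9.58, 9.20 and 9.19 in controls and 9.19, 9.11 and 8.99 in DN-TRF2 cells. Its groups were separated by a narrow margin, with a difference of -0.23 ± 0.15 that was -0.10 without GFP control 1. TRIB3, a target of ATF4, differed by -0.33 ± 0.17 and PPP1R15A, which directs EIF2 dephosphorylation, by -0.20 ± 0.18. TRIB3 was at -0.21 without GFP control 3, and PPP1R15A at -0.059 without GFP control 2 and -0.39 without GFP control 3. DOHH, an enzyme of EIF5A hypusine formation, differed by 0.17 ± 0.13, the release factor gene ETF1 by -0.17 ± 0.17 and TMA16 by 0.13 ± 0.14. Without GFP control 2 these were 0.11, -0.025 and 0.064; ETF1 was -0.34 without GFP control 1 and TMA16 0.25 without GFP control 3.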

How the data were processed

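Per the labels' protocols, about 5 µg of total RNA per sample carried a radioactive label, and each sample went on its own cDNA array, of 9600 spots. The authors deposited linear intensity values per spot; how the image was read, corrected and scaled is not given in the sources used. The value 10 was taken to stand in for spots without signal. It is not the lowest value, as the minimum over the tested spots was 0.03 to 0.14 on the 6 arrays. The value 10 recurs at 384 unnamed positions, each 25th spot, which were left out with 47 other spots at 10 on all 6 arrays. Spots were named through the platform annotation, updated by gene ID to RefSeq (GRCh38.p14); 8451 spots carried 1 symbol and 718 several or none.

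An offset of 50 was added, log2 taken, arrays quantile-normalized and spots of a gene averaged. Every gene was tested with limma 3.58.1 under R 4.3.3 in two-sided form, with p-values adjusted by Benjamini-Hochberg over all genes and a threshold of 0.05, and every spot likewise. The fit was tested on simulated data with known differences, where a pass required recovery only at a log2 difference of 3. The pass therefore says nothing about differences as small as those of the members. Errors are limma's moderated standard errors. Members, lists and rules were chosen with earlier results of these data known. Values on all arrays are given for members whose groups do not overlap or that had an unadjusted p under 0.05, for the largest difference of each group of factors, and for genes whose spots differ in sign; other members so described were chosen after their values were seen. Up to 3 genes of smallest p are named per partner list. Distances from the group mean correlated on arrays of 1 number at 0.39, 0.29 and 0.24 over all genes; this pairing comes from the values, as the labels name independent experiments without tying numbers to them. Nothing says whether the experiments used separate stocks of cells, so p-values measure the spread between these samples.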

Additional observations from a re-analysis of the deposited data

How the results depend on the processing

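Over 19 alternatives 0 initiation factor genes and 0 of all genes passed limma's adjusted test, including the fit with the replicate block, where 0 passed as well. The members' median difference stayed below 0 in all 19. The block and the test without moderated variance leave every difference as it was, so they could not change a median or a sign. The median over all genes was also below 0, except without normalization (0.024), with array weights (0.0024) and without GFP control replicate 2 (0.0035). The members' median was -0.019 without normalization. With 1 array left out it ran from -0.062 to -0.016 (without DN-TRF2 replicate 2, where all genes had -0.0099). A higher mean was found for 9 of the 27 genes left without the spots below median signal, and for 14 to 18 of 39 with 1 array left out. Under median scaling 42.6% of all genes were higher, against 56.3% without normalization, and 15 and 17 of the 39 members. Of the 39 genes 22 kept their sign in all alternatives in which they were measured and 17 did not. The same share over all genes was not counted, so these counts have no background beside them. The cause was not tested. Signal limits the dimmest members: 36 of 39 were left without the dimmest quartile of spots, and EIF2B5 differed by -0.32 at an offset of 1. Alternatives were offsets of 1, 10 and 100, median scaling, cyclic loess, no normalization, 2 filters on dim spots, blanks kept, the brightest spot per gene, array weights, the block, a test without moderated variance and each array left out. The wider window for pyrimidine runs and the partners' values with 1 array left out were added after seeing the data.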
